A study of Caenorhabditis elegans with 4 samples.

Results

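Neuropeptide genes of the *flp* and *nlp* families were followed in 4 transcriptomes of *Caenorhabditis elegans*. They were taken by name: every gene of the deposited table called *flp* or *nlp* with a number, except the antimicrobial peptide genes from *nlp-25* to *nlp-34*, 9 of which are in the table. This left 61 of 15408 genes, 29 *flp* and 32 *nlp*. The rule uses names and no measured value, though it was set with earlier results of these data known. Of the 4 libraries, 2 came from mixed-stage worms of the strain N2, the wild type, kept in 60 µg/ml cisplatin, a platinum drug that crosslinks DNA, for 24 h at 20°C. The other 2 came from untreated N2 worms, also of mixed stages, and in each group the libraries are numbered 1 and 2. No mutation or transgene is named for either group, and all worms were fed OP50 bacteria.

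Neuropeptides are cut from longer precursors, packed into dense-core vesicles and released to act on receptors, mostly coupled to G proteins, at a distance from synapses. The *flp* genes encode FMRFamide-like peptides, which share an amidated end of arginine and phenylalanine. The *nlp* genes encode other neuropeptide-like proteins, a collection of unrelated peptide families. Most are transcribed in small sets of neurons, so in RNA of whole animals their level depends on the number of such cells as well as on the RNA in each, and fewer cells of a type and less RNA per cell cannot be told apart. No peptide or precursor sequence was at hand, so none is printed.

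The levels are FPKM, counts of fragments scaled to the exon length of the gene and to the size of the library, as the authors' software gave them. In what follows the values of cisplatin replicates 1 and 2 come first and those of control replicates 1 and 2 stand in parentheses. If the bounds deposited with each level are taken as 95% limits of Poisson counting, the libraries held between 6.57 and 7.05 M fragments. The median level of the 15065 genes tested was 9.67 and 12.8 FPKM (control 6.97 and 13.3 FPKM), so control replicate 1 had the lowest. Genes were compared as log2(FPKM + 0.5) with limma. On this scale the median gene differed by 0.13 between cisplatin and control, by 0.25 in the pair numbered 1 and by 0.00 in the pair numbered 2. It differed by -0.06 once all libraries were scaled to a common median, by 0.27 and 0.00 without cisplatin replicates 1 and 2 and by -0.15 and 0.42 without control replicates 1 and 2. Differences of the peptide genes are therefore also given relative to all genes.

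The 61 genes were taken from the deposited table, so their presence there is no result, and most lay within a narrow band of levels. Their mean FPKM over the 4 libraries ranged from 2.21 to 304, with a median of 18.8 against 10.9 over all genes tested. Of the 61 genes, 40 had between 10 and 40 FPKM, 11 had less and 10 had more. All 61 passed the filter of a mean of at least 0.5 FPKM, and none had a failed estimate. The transcripts are short, with a median of 633 bases of exon against 1308 over all genes tested with an exon length. A median of 73.5 fragments is implied behind a value of these genes, and 168 of 244 values rested on fewer than 100 or had a lower bound at 0.

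The 3 most abundant were *nlp-36*, *nlp-40* and *nlp-24*, which together held between 33.5% and 43.4% of the summed FPKM of the 61 genes. *nlp-36* (B0464.3), on chromosome III from 9488731 to 9489186 in WBcel235, had 380.3 and 270.0 FPKM (control 320.2 and 246 FPKM). *nlp-40* (Y74C9A.2), on chromosome I from 11495 to 16837, encodes a peptide of the intestine that times the defecation motor program. Its values were 277 and 235.3 FPKM (control 254 and 211 FPKM). *nlp-24* (F35B12.7), on chromosome V from 11616376 to 11616828, encodes an opioid-like peptide and had 201 and 268 FPKM (control 162 and 243 FPKM). In each of these genes the lower cisplatin value lay below the higher control value, so the groups overlapped. A gap separated them from the next, *flp-28* with 82.3 and 68.3 FPKM (control 82.4 and 59.9 FPKM) and *nlp-20* with 74.4 and 55.7 FPKM (control 66.96 and 63.4 FPKM). *flp-6*, transcribed in amphid sensory neurons, had 48.8 and 58.3 FPKM (control 47.8 and 61.5 FPKM). These 3 overlapped between the groups as well, and their order held in both libraries numbered 1 and in neither numbered 2. When single libraries were omitted, log2 fold changes lay between -0.05 and 0.44 for *nlp-36*, between 0.01 and 0.28 for *nlp-40* and between -0.07 and 0.52 for *nlp-24*. They lay between -0.13 and 0.32 for *flp-28*, between -0.22 and 0.19 for *nlp-20* and between -0.20 and 0.16 for *flp-6*. The log2 fold changes in the full fit were 0.19, 0.14 and 0.22 for the first 3, with standard errors of 0.25, 0.20 and 0.27, and after scaling all libraries to a common median those of *nlp-36* and *nlp-40* were -0.02 and -0.07.

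Below these came *flp-22*, *nlp-17*, *nlp-12* and *flp-15* with means between 40.6 and 50.04 FPKM, and the ranges of these 4 genes over all libraries overlapped one another. At the low end *nlp-5*, *nlp-16*, *nlp-4*, *flp-25*, *nlp-2*, *nlp-19* and *nlp-46* had means between 2.21 and 6.23 FPKM. The lowest *flp* gene was *flp-25*, with 3.32 and 4.51 FPKM (control 4.22 and 5.46 FPKM).

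**Figure D1:**
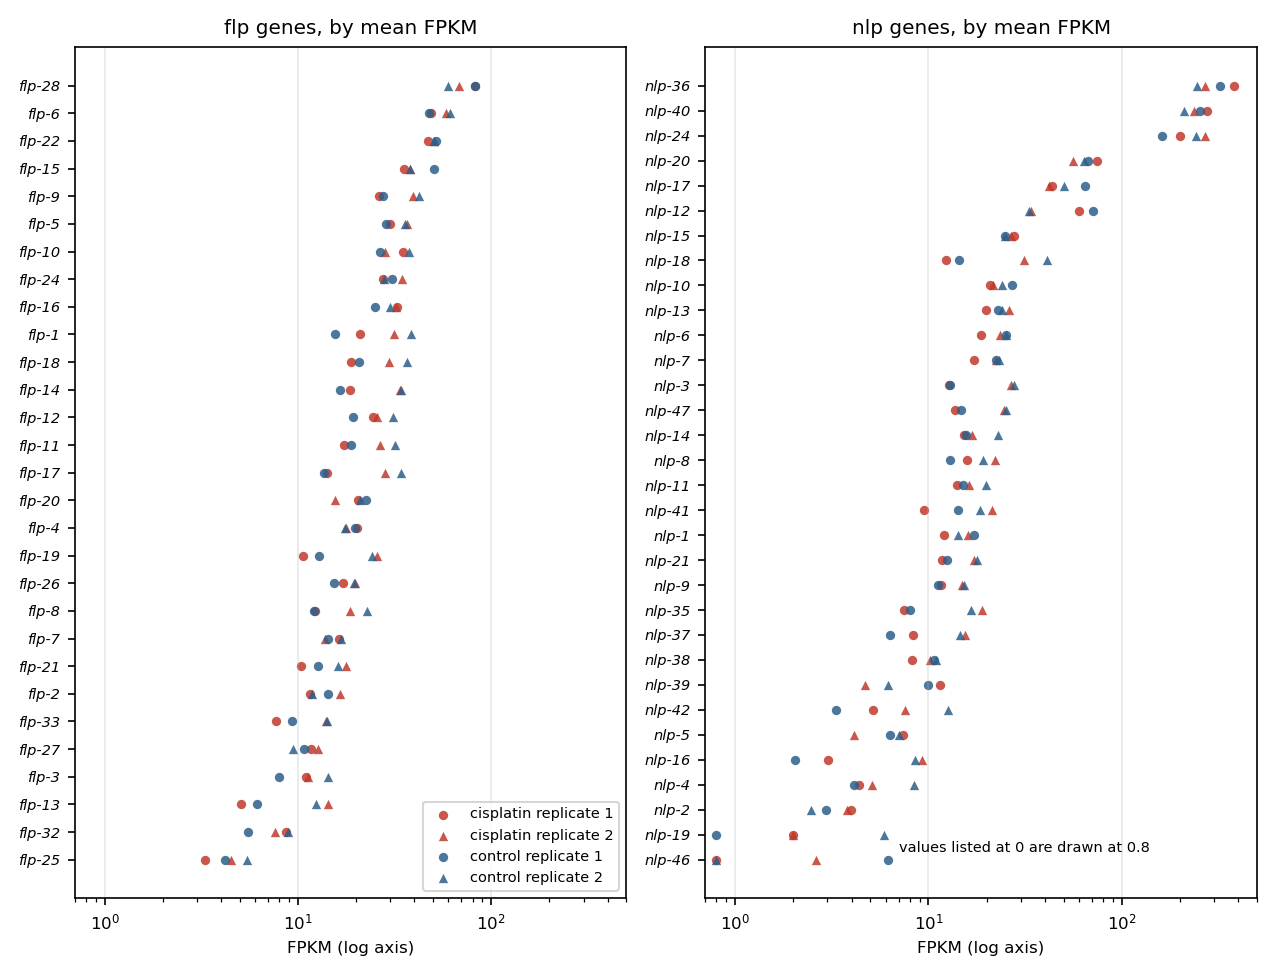
FPKM of the 29 *flp* genes and the 32 *nlp* genes in each of the 4 libraries, on a log axis, ordered by mean (red, cisplatin; blue, control; circles, replicate 1; triangles, replicate 2). *nlp-36*, *nlp-40* and *nlp-24* stand above the rest, and in many genes the circles and the triangles lie further apart than the red and the blue points.

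The first question was whether the peptide genes differed after cisplatin. None did by the test used: 0 of 61 passed an adjusted p of 0.05 in limma with Benjamini-Hochberg adjustment, and 0 were past an unadjusted p of 0.05 in either direction. Over all 15065 genes, 1.12% were higher and 0.445% lower at that unadjusted p, and 0% passed with adjustment in either direction. The smallest unadjusted p among the peptide genes was 0.118, for *nlp-17*, and every adjusted p in limma was 1.00. With the replicate number as a block 0 passed with adjustment, and *nlp-17* alone, on the lower side, was past an unadjusted p of 0.05. Without control replicate 2 this held for 2 genes, *nlp-17* (log2 fold change -0.58) and, on the higher side, *nlp-19*, the latter against a single control library in which it is listed at 0. Exact permutation of 2 against 2 libraries, which reaches a two-sided p of 0.333 at the lowest, was not used.

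Fold changes of these genes were small. Among the 59 genes above 0 in every library, the log2 fold change ranged from -0.40 to 0.45, and 0 of 61 differed by more than 1, against 3.11% of all genes tested. A missed threshold does not show that a gene was unchanged. The standard error had a median of 0.39, against 0.55 over all genes tested, and was at least 0.20. The 95% interval of limma lay between -1 and 1 for 24 of the 61 genes (39.3%) and for 30.3% of all genes tested.

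The median log2 fold change of the 61 genes was -0.04, with 24 above 0 and 37 below. It was -0.02 for the *flp* genes and -0.07 for the *nlp* genes, against 0.13 for all genes tested. The direction of the unscaled median depended on the libraries: it was 0.15 where cisplatin replicate 1 was omitted and 0.17 for control replicate 2, and -0.23 for cisplatin replicate 2 and for control replicate 1. Set against the median gene of the same fit it was -0.17 and stayed between -0.26 and -0.08 with 1 library left out, the latter without control replicate 1. It was -0.20 with quantile normalization and -0.18 after scaling all libraries to a common median. By pair, the relative median was -0.25 in pair 1 and -0.03 in pair 2. Of the 61 genes, 49 lay below the median gene. This is a description, and no test of the families as a whole was made.

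Within the same-numbered pairs the genes did not keep an order. Both pairs were on the higher side in 13 genes (21.3%) and on the lower side in 18 (29.5%), against 38.4% and 15.7% of all genes tested, on levels not scaled to a common median. Across the 59 genes above 0 in every library, the differences of pair 1 and of pair 2 had a Pearson correlation of -0.18, and across all genes tested of 0.14. These are correlations across genes, which share libraries and are not independent replicates.

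**Figure D2:**
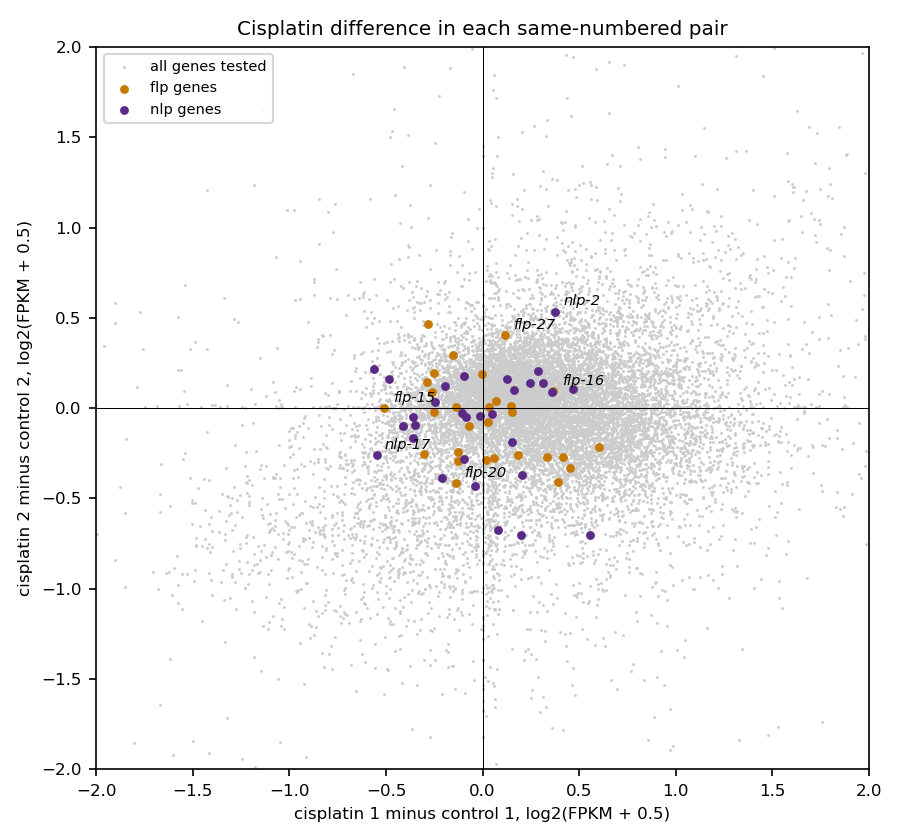
Difference between cisplatin and control on the log2(FPKM + 0.5) scale in the pair numbered 1 (horizontal) and in the pair numbered 2 (vertical), for the 59 peptide genes above 0 in every library and for all genes tested (grey; 237 lie beyond the axes). The peptide genes sit close to the origin with no common slant, with *nlp-17* on the lower left and *nlp-2* on the upper right.

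Few genes had groups that do not overlap. In 4 genes (6.56%) both cisplatin values lay above both control values and in 6 (9.84%) below, while of all genes tested 15.1% lay above and 4.21% below. These shares are from levels not scaled to a common median, and no scaled count was made. On the lower side were *nlp-17*, *flp-20*, *nlp-10*, *flp-15*, *nlp-6* and *nlp-38*. *nlp-17* (Y45F10A.5), on chromosome IV from 13505270 to 13505762, had 43.8 and 41.8 FPKM (control 64.3 and 50.2 FPKM). Its log2 fold change was -0.40 (standard error 0.22), and with 1 library left out it ranged from -0.58 to -0.23. Its exons share 30 bases with those of *seld-1* on the other strand, and *seld-1* had 16.5 and 20.03 FPKM (control 8.86 and 13.99 FPKM). The part of the shared bases in the values of *nlp-17* was not tested.

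*flp-20*, transcribed in touch receptor neurons, had 20.4 and 15.5 FPKM (control 22.4 and 20.9 FPKM). *flp-15* had 35.5 and 38.1 FPKM (control 50.7 and 38.2 FPKM), so control replicate 2 stood just above cisplatin replicate 2 and the separation rests on control replicate 1. *nlp-10* had 20.8 and 21.4 FPKM (control 26.9 and 24.1 FPKM) and *nlp-6* had 18.8 and 23.4 FPKM (control 25.1 and 25.1 FPKM). *nlp-38*, named *mihp-1* in the current annotation, had 8.23 and 10.2 FPKM (control 10.6 and 10.9 FPKM). The log2 fold changes of these 5 genes lay between -0.28 and -0.22, with standard errors between 0.24 and 0.43, and unadjusted p-values in limma ranged from 0.331 to 0.622.

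On the higher side were *nlp-2*, *flp-27*, *flp-16* and *nlp-15*. *nlp-2* (T24D8.5) had 3.96 and 3.81 FPKM (control 2.94 and 2.48 FPKM), a log2 fold change of 0.45 (standard error 0.65), and its values rest on between 13.3 and 17.1 implied fragments. *flp-27* had 11.7 and 12.7 FPKM (control 10.8 and 9.46 FPKM), also at low depth. *flp-16* had 32.6 and 32.02 FPKM (control 25.1 and 29.9 FPKM), with a log2 fold change of 0.23 (standard error 0.25). The values of *nlp-15*, a gene of orcokinin-like peptides, were 27.8 and 26.6 FPKM (control 24.8 and 24.9 FPKM), and its log2 fold change of 0.13 turned to -0.08 after scaling all libraries to a common median.

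Peptides that act in sleep were looked at as a group, since the ALA neuron of *C. elegans* puts animals to sleep after cell stress, among other stresses after ultraviolet light, through FLP-13, FLP-24 and NLP-8. Of these genes *flp-13* (F33D4.3), on chromosome IV from 7696932 to 7698420, had 5.08 and 14.3 FPKM (control 6.15 and 12.4 FPKM). Both libraries numbered 1 were low and both numbered 2 were high. *flp-24* had 27.6 and 34.5 FPKM (control 30.8 and 28.03 FPKM) and did not separate by group or by number. *nlp-8* (D2005.2), on chromosome I, had 15.9 and 22.2 FPKM (control 12.9 and 19.2 FPKM), with the cisplatin library above the control library of the same number in both pairs but with overlapping groups.

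*flp-11*, the main sleep peptide of the RIS neuron, had 17.2 and 26.6 FPKM (control 18.9 and 31.7 FPKM), and *nlp-14*, a gene of orcokinin-like peptides, had 15.2 and 16.8 FPKM (control 15.6 and 22.9 FPKM). The log2 fold changes were -0.03, 0.07, 0.25, -0.19 and -0.23 for *flp-13*, *flp-24*, *nlp-8*, *flp-11* and *nlp-14*. With 1 library left out each changed sign, ranging from -0.73 to 0.67 for *flp-13*, -0.09 to 0.23 for *flp-24*, -0.03 to 0.52 for *nlp-8*, -0.55 to 0.18 for *flp-11* and -0.50 to 0.03 for *nlp-14*. The median of these 5 genes was -0.03, or -0.16 relative to all genes. *nlp-22*, a peptide gene of the moulting sleep, was not analysed here.

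On unscaled levels, the libraries numbered 2 differed from those numbered 1 by more than cisplatin did in most peptide genes, as in most genes tested. The difference between the numbers, averaged over the groups, was larger in size than the log2 fold change in 46 of the 59 genes above 0 in every library (78.0%) and in 76.4% of all genes tested. Part of this is a shift common to all genes: the median gene differed by 0.47 between the numbers and by 0.13 between the groups. Across these 59 genes the difference between the numbers had a standard deviation of 0.54, against 0.18 for the fold change. Across all genes tested it was 0.72 against 0.43. The differences in the cisplatin and in the control libraries had a Pearson correlation of 0.73 across these genes and of 0.59 across all genes tested, as a description. Values were higher in replicate 2 in both groups for 35 of the 61 genes (57.4%) and lower for 10 (16.4%), near the 64.6% and 18.8% of all genes tested. The median of the 61 genes was 0.31, but -0.12 with quantile normalization and -0.35 after scaling all libraries to a common median, so that only the order among the genes is read here. Relative to all genes it was -0.17, at 0.03 with cisplatin and -0.29 without.

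Among the genes above 0 in every library, the high end held *nlp-16*, *nlp-18* and *flp-13*. *nlp-16* (T13A10.5), on chromosome IV from 6255049 to 6259832, had 3.01 and 9.23 FPKM (control 2.04 and 8.54 FPKM), so that both libraries numbered 2 lay far above both numbered 1. *nlp-18* (F33A8.2), on chromosome II from 11027972 to 11030397, had 12.3 and 31.1 FPKM (control 14.3 and 40.8 FPKM), again with a wide gap between the numbers. *nlp-42*, *nlp-35*, *flp-17*, *flp-19*, *nlp-3* and *nlp-37* followed, each more than 1 apart on the log2 scale. *flp-17*, a peptide gene of the carbon dioxide-sensing BAG neurons, had 14.2 and 28.05 FPKM (control 13.6 and 34.1 FPKM). *nlp-3*, whose peptides are released with serotonin from the egg-laying HSN neurons, had 12.8 and 26.9 FPKM (control 12.9 and 27.7 FPKM). *nlp-37*, better known as *pdf-2* and related to the pigment dispersing factor of insects, had 8.29 and 15.5 FPKM (control 6.34 and 14.6 FPKM).

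The other end, again without genes listed at 0, held *nlp-12*, *nlp-39* and *nlp-36*. *nlp-12* (M01D7.5), on chromosome I from 1843384 to 1843959, encodes a cholecystokinin-like peptide of the DVA neuron. It had 59.98 and 34.02 FPKM (control 71.2 and 33.2 FPKM), with both libraries numbered 1 above both numbered 2. *nlp-39* had 11.5 and 4.67 FPKM (control 9.91 and 6.18 FPKM). When single libraries were omitted, the log2 fold change lay between -0.65 and 0.44 for *nlp-12*, between -0.69 and 0.52 for *nlp-39*, between -0.63 and 1.20 for *nlp-16* and between -1.04 and 0.44 for *nlp-18*. The sign of the cisplatin difference in these 4 genes rested on single libraries. It was above 0 for *nlp-18* where cisplatin replicate 1 or control replicate 2 was omitted and for *nlp-12* and *nlp-39* where cisplatin replicate 2 or control replicate 1 was, and these latter libraries also turned *nlp-16* below 0.

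Some markers of developmental stage moved with the replicate number. For 25 genes of moulting and the larval cuticle, which are transcribed in larvae, replicate 2 was higher in both groups in all 25, by a median of 1.52 with cisplatin and 1.62 without. Relative to all genes the median over both groups was 1.11. The range of their summed FPKM was 604 to 618 in the libraries numbered 1 and 1667 to 1781 in those numbered 2. Oocyte and early germline genes had a median of -0.32, with 9 of 13 lower in both libraries numbered 2. Of 9 genes of a list for the embryo, 5 were higher in replicate 2 in both groups, against 64.6% of all genes tested. Their median was 0.00 with cisplatin and 1.13 without, or -0.27 and 0.49 relative to all genes. Others chosen for that list, such as *end-1* and *med-1*, were not matched in the table. The 20 panneuronal genes had a median of 0.85, which was 0.38 above that of all genes. By treatment, the relative median of the moulting genes was -0.12, but it turned to 0.46 with cisplatin replicate 1 omitted and to 0.44 with control replicate 2 omitted, and was -0.78 and -0.73 for omission of cisplatin replicate 2 and control replicate 1. The relative median was -1.22 for 20 sperm genes, mostly near-identical genes of the major sperm protein whose values are uncertain for that reason. The sperm genes had a summed 1568 and 1807 FPKM (control 3903 and 3245 FPKM). At an unadjusted p of 0.05 in limma 16 of 20 were lower, and 0 after Benjamini-Hochberg adjustment. These 16 were all genes of the major sperm protein. The rest of the list, *spe-38*, *spe-11*, *spe-9* and *spe-41*, had unadjusted p-values in limma from 0.34 to 0.91. The part of stage and germline in the differences of single peptide genes was not tested.

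**Figure D3:**
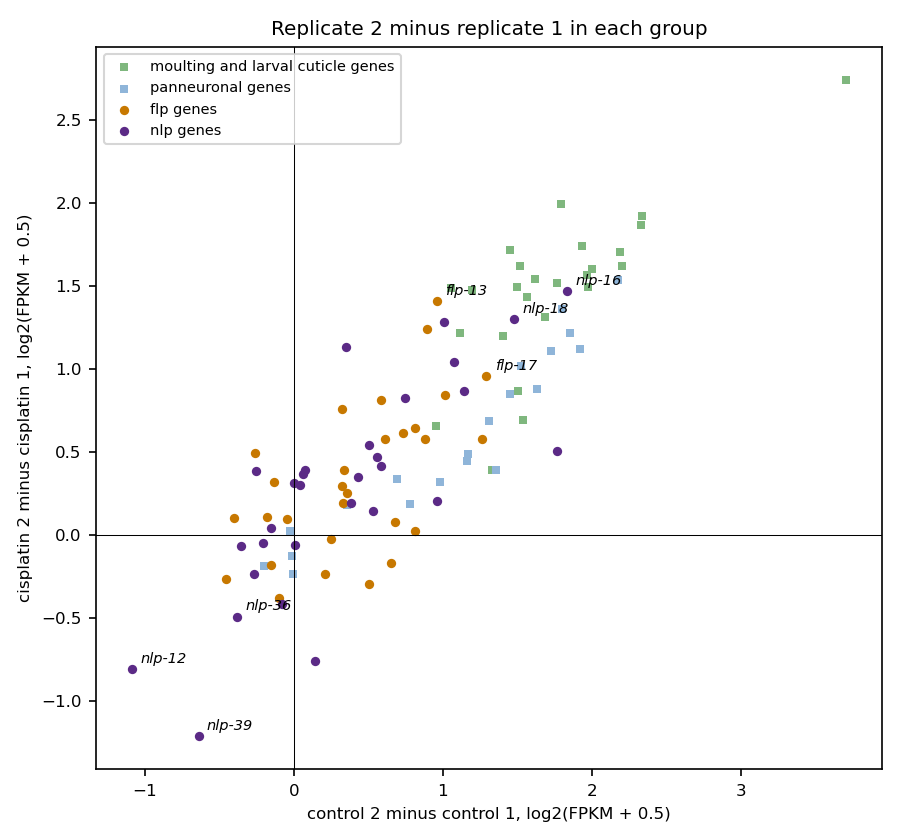
Difference between replicate 2 and replicate 1 in the control libraries (horizontal) and in the cisplatin libraries (vertical), on the log2(FPKM + 0.5) scale, for the 59 peptide genes above 0 in every library, 25 genes of moulting and the larval cuticle and 20 panneuronal genes (squares). Peptide genes spread along the diagonal from *nlp-12* and *nlp-39* at the lower left to *nlp-16* and *nlp-18* at the upper right, where the moulting genes lie.

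Other genes had a similar level in all 4 libraries, and the examples here were picked after their values were seen. *flp-22* had 47.3 and 50.6 FPKM (control 51.97 and 50.3 FPKM) and *flp-4* had 20.1 and 17.7 FPKM (control 19.6 and 17.6 FPKM). *nlp-13* had 19.9 and 26.2 FPKM (control 22.8 and 24.02 FPKM), and *flp-26* had 17.2 and 19.6 FPKM (control 15.4 and 19.5 FPKM). Together with *nlp-15* these genes differed little by treatment or by number, whereas *flp-1*, a regulator of locomotion, had 21.02 and 31.6 FPKM (control 15.6 and 38.2 FPKM).

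A pair of genes was listed at 0 in part of the libraries. *nlp-19* (K09C8.6), on chromosome X from 10958727 to 10959253, had 1.997 and 1.99 FPKM in the cisplatin libraries, was listed at 0 in control replicate 1 and had 5.91 FPKM in control replicate 2. *nlp-46* (T28H10.4), on chromosome V from 12505059 to 12506285, was listed at 0 in cisplatin replicate 1 and control replicate 2, and had 2.63 FPKM in cisplatin replicate 2 and 6.20 FPKM in control replicate 1. Where bounds allow an estimate, 5.37 to 7.76 fragments are implied for *nlp-19*, and no lower bound of *nlp-46* lay above 0. No fold change is given for either. Without them the median log2 fold change of the peptide genes was -0.04 as before.

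The receptors of several of these peptides are known, and most were measured at low levels. *egl-6*, which responds to FLP-17 and FLP-10 in egg laying, had 2.01 and 2.68 FPKM (control 3.48 and 3.72 FPKM), with both cisplatin values below both control values. Its ligand genes overlapped between the groups, *flp-17* as above and *flp-10* with 34.8 and 28.2 FPKM (control 26.4 and 37.7 FPKM). *ckr-2*, a receptor for NLP-12, had 1.86 and 2.85 FPKM (control 0.596 and 2.38 FPKM). *npr-5*, a receptor for FLP-18, had 2.57 and 4.58 FPKM (control 2.14 and 4.52 FPKM), and *flp-18* had 18.8 and 29.8 FPKM (control 20.6 and 36.6 FPKM). *dmsr-1*, through which FLP-13 acts, had 2.78 and 5.29 FPKM (control 2.00 and 6.13 FPKM). *pdfr-1*, the receptor of the PDF peptides, had 3.72 and 6.95 FPKM (control 2.33 and 8.16 FPKM). In *npr-5*, *dmsr-1* and *pdfr-1* both libraries numbered 2 stood above both numbered 1, as they did in *flp-18*, *flp-13* and *nlp-37*. By a looser measure, 64.6% of all genes tested had the library numbered 2 above that numbered 1 within both groups. In *ckr-2* each library numbered 2 lay above its partner numbered 1, while in its ligand gene *nlp-12* each lay below. *aex-2*, the receptor of NLP-40 in defecation, had 1.26 and 1.35 FPKM (control 0.631 and 0.927 FPKM), close to the filter on low values. Both its cisplatin values lay above both control values. *npr-17*, a receptor for NLP-24, had 1.06 and 2.76 FPKM (control 0.595 and 2.76 FPKM).

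Over the list of 73 tested receptor genes, 0 were past the threshold in limma after adjustment, and 0 were higher and 0 lower at an unadjusted p of 0.05. Their median log2 fold change was 0.18, or 0.05 relative to all genes. At the ends of the list were B0334.6, named *npr-41* in the current annotation, with 4.99 and 3.61 FPKM (control 0.482 and 1.62 FPKM), *ckr-2*, *egl-6* and *npr-6* with 0.252 and 0.947 FPKM (control 0.472 and 1.39 FPKM). Groups did not overlap in B0334.6 and *egl-6*, among 7 receptor genes (9.59%) on the higher and 2 (2.74%) on the lower side in all, against 15.1% and 4.21% of all genes tested. Replicate 2 was higher in both groups in 69 of the 73 receptor genes (94.5%), against 64.6% of all genes tested. In the lists described below it was higher in 15 of 16 dense-core vesicle genes, 10 of 11 processing genes and 13 of 13 neprilysin-like genes. Among panneuronal genes the count was 16 of 20 and among transmitter genes 12 of 15. These counts are from levels not scaled to a common median.

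Genes that make and release the peptides were more abundant than their receptors. The 11 processing genes had a median level of 39.03 and 56.1 FPKM (control 35.9 and 57.4 FPKM), and the 73 receptor genes of 0.937 and 1.57 FPKM (control 0.590 and 1.49 FPKM). *egl-3*, the proprotein convertase that cuts most precursors, had 41.4 and 63.4 FPKM (control 35.9 and 66.1 FPKM), and *egl-21*, the carboxypeptidase that trims them, had 69.2 and 75.8 FPKM (control 66.04 and 78.5 FPKM). *sbt-1*, the chaperone of EGL-3, had 92.7 and 109 FPKM (control 94.3 and 114 FPKM). *pgal-1* and *pamn-1*, which act in amidation, had 39.03 and 61.4 FPKM (control 36.2 and 69.6 FPKM) and 10.6 and 17.8 FPKM (control 6.45 and 19.04 FPKM). *cpd-1*, of the carboxypeptidase D type, had 5.95 and 13.5 FPKM (control 3.48 and 14.5 FPKM). In none of these did the groups separate. *aex-5*, a convertase of the intestine, had 8.83 and 9.80 FPKM (control 5.56 and 8.20 FPKM), and its cisplatin values lay above its control values. It was the only such gene of the 11, while 15.1% of all genes tested had values of this kind. The median log2 fold change of the list was 0.16, or 0.03 relative to all genes.

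Among 16 genes of dense-core vesicles the median log2 fold change was 0.21, which was 0.08 above that of all genes. *ida-1*, a vesicle membrane protein, had 31.5 and 43.2 FPKM (control 26.2 and 46.7 FPKM), and *unc-31*, which primes the vesicles for release, had 2.54 and 3.69 FPKM (control 0.914 and 4.17 FPKM). *tbc-8* and *vesa-1* were at the low end, with 1.32 and 3.05 FPKM (control 1.40 and 3.52 FPKM) and 3.29 and 4.19 FPKM (control 3.50 and 4.28 FPKM), and *unc-31* and T19D7.4, now named *rund-1*, at the high end, the latter with 2.14 and 4.58 FPKM (control 0.892 and 3.34 FPKM). For 8 other secreted peptide genes the median was 0.01, with *pdf-1* at 24.9 and 43.4 FPKM (control 19.9 and 51.6 FPKM), *snet-1* at 21.6 and 36.6 FPKM (control 21.6 and 48.98 FPKM), *daf-28* at 4.92 and 6.71 FPKM (control 3.77 and 5.31 FPKM) and the *trh-1* gene C30H6.10 at 0.239 and 4.80 FPKM (control 0.674 and 3.82 FPKM). All 8 were higher in replicate 2 in both groups, against 64.6% of all genes tested.

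The 20 panneuronal genes, some of which such as *snb-1* and *snap-29* are transcribed outside neurons too, had a median log2 fold change of 0.20, or 0.07 relative to all genes. *rab-3*, a synaptic vesicle GTPase, had 13.9 and 18.5 FPKM (control 8.49 and 22.5 FPKM). *unc-119* and *unc-57* were at the low end with 11.98 and 13.7 FPKM (control 9.86 and 17.3 FPKM) and 74.2 and 67.8 FPKM (control 68.5 and 67.8 FPKM), and *rgef-1* and *unc-10* at the high end with 1.30 and 3.15 FPKM (control 0.634 and 2.76 FPKM) and 1.25 and 4.58 FPKM (control 0.533 and 4.16 FPKM). In limma 0 genes for processing, vesicles, other peptides or panneuronal functions passed after adjustment, with 0 higher and 0 lower at an unadjusted p of 0.05.

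In 2 further lists single genes were past that unadjusted p without passing the adjusted one. Among 13 neprilysin-like genes, of a family of enzymes that degrade peptides, *nep-22* had 50.1 and 63.7 FPKM (control 28.4 and 42.3 FPKM) and *nep-17* had 140.3 and 175 FPKM (control 93.4 and 129 FPKM). The log2 fold change of *nep-22* was 0.70 (standard error 0.28), with an unadjusted p of 0.0440 and an adjusted p of 1.00 in limma with Benjamini-Hochberg adjustment. In both genes the cisplatin values lay above the control values. They were 2 such genes of 13, near the 15.1% of all genes tested. *nep-23* and *nep-16*, at the low end, had 0.174 and 1.14 FPKM (control 0.284 and 2.69 FPKM) and 0.174 and 0.877 FPKM (control 0.275 and 1.28 FPKM). In the libraries numbered 1 both lay below 0.5 FPKM, the amount added before the log. The list had a median log2 fold change of 0.22, which was 0.10 above that of all genes. Among 15 genes of transmitter synthesis and transport, *cat-4*, which makes the cofactor for serotonin and dopamine synthesis, had 81.3 and 109 FPKM (control 25.1 and 47.2 FPKM). Its log2 fold change was 1.44 (standard error 0.34), with an unadjusted p of 0.00483 and an adjusted p of 1.00 in limma with Benjamini-Hochberg adjustment. *bas-1*, which encodes an aromatic amino acid decarboxylase, had 36.5 and 39.3 FPKM (control 22.2 and 27.7 FPKM). *cat-2* and *unc-17* were at the low end with 0.117 and 0.824 FPKM (control 0.22 and 1.35 FPKM) and 4.69 and 8.06 FPKM (control 4.07 and 9.29 FPKM), and the median of the list was 0.15. In all, the 7 lists held 156 genes, of which 2 (1.28%) were higher and 0 lower at that unadjusted p, against 1.12% and 0.445% of all genes tested. With 1 library left out the relative median of each list changed sign, with the narrowest range for the processing genes (-0.08 without control replicate 1 to 0.08 without control replicate 2) and the widest for the neprilysin-like genes (-0.53 to 0.35, without the same libraries).

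**Figure D4:**
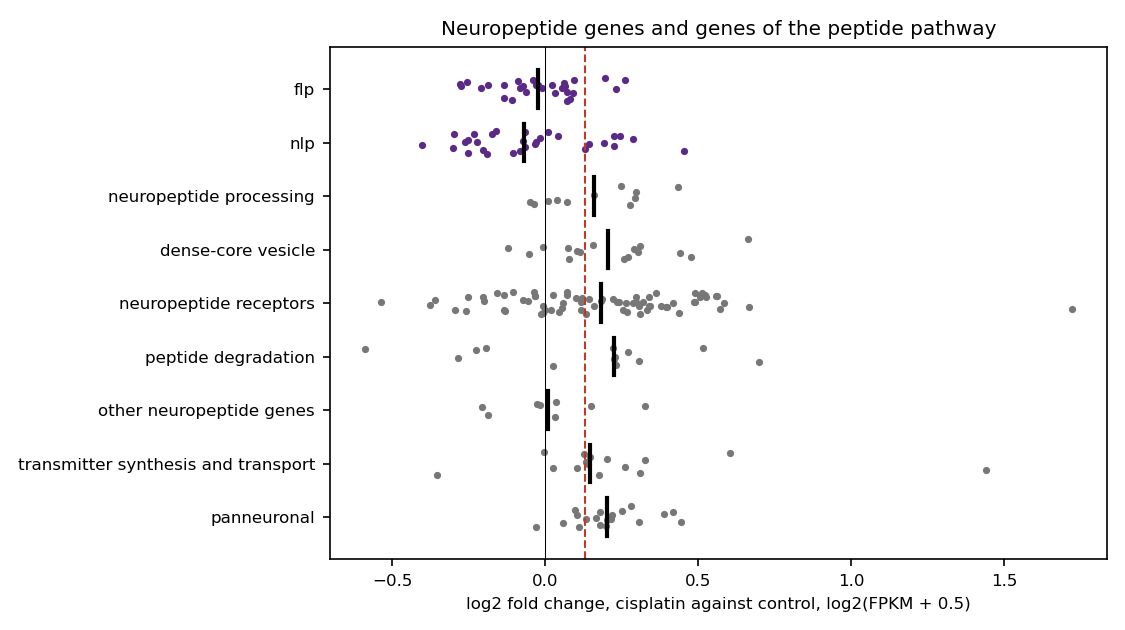
Log2 fold change of cisplatin against control for the peptide genes (30 *nlp* and 29 *flp* genes above 0 in every library) and for 7 lists of related genes, 1 point per gene. Thick bars are list medians (for *nlp*, of all 32) and the dashed line is the median of all genes tested, at 0.13. *cat-4* and B0334.6 are the points furthest to the right.

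Many of the peptide genes lie on the X chromosome, with 21 of 61 (34.4%) there against 14.2% of all genes tested, a description with no test. Of the *flp* genes 13 of 29 are on it and of the *nlp* genes 8 of 32. *flp-28*, *flp-3* and *flp-2* lie close together on it, at 10087314 to 10087966, 10091946 to 10092964 and 10094430 to 10095245, all on the minus strand. Their levels did not follow each other: *flp-28* was high, as given above, while *flp-3* had 11.1 and 11.3 FPKM (control 7.94 and 14.3 FPKM) and *flp-2* had 11.6 and 16.5 FPKM (control 14.3 and 11.8 FPKM). *nlp-9* and *nlp-13* are neighbours on chromosome V, at 4219642 to 4222233 and 4236418 to 4238056, and *nlp-9* had 11.7 and 14.97 FPKM (control 11.3 and 15.3 FPKM).

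Exons of 11 of the 61 genes overlap exons of a protein-coding gene on the other strand, and whether the authors' counting used strand is not given in the sources used here. The shared part was between 0.746% and 20% of the bases of exon, largest in *nlp-46* and *nlp-35*. For *nlp-36* it was 11 of 352 bases, shared with *dars-1*, which had between 193 and 208 FPKM. In *nlp-24* 24 of 377 bases are shared with *glb-15*, which had at most 2.57 FPKM. Without these 11 genes the median log2 fold change of the peptide genes was -0.03, and 0 were past an unadjusted p of 0.05.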

How the data were processed

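RNA of 4 mixed-stage N2 populations was sequenced, 2 exposed to cisplatin and 2 untreated. Per the labels and the study's methods, the authors aligned reads with TopHat to WBcel235, removed reads with several mapping sites and computed FPKM with bounds and a success flag for each library in Cufflinks and Cuffdiff, run in SeqSolve. Tool versions, and whether counting used strand, are not given in the sources used here. The treatment field gives 60 µg/ml, the common protocol text 0 µg/ml, and the field was followed. Columns with the authors' own comparisons (fold changes, tests, splicing) were not used.

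Genes whose mean reached 0.5 FPKM, without a failed estimate, entered a fit of log2(FPKM + 0.5) with limma 3.58.1 and an intensity trend in R 4.3.3. This left out 88 genes with a failed estimate and 255 under the minimum. p-values were adjusted over all 15065 genes by Benjamini-Hochberg. Fold changes on this scale understate those of low genes. The p-values rest only on the spread between 2 libraries a group, drawn by limma toward the intensity trend over all genes tested. The script was tested on simulated data, with planted differences larger than those of the peptide genes, and the outcome is not given here. Positions and overlaps come from Ensembl 115 (WBcel235), which matched 61 of 61 genes. Members and lists were chosen with earlier results of these data known.

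Values are printed for peptide genes with groups that do not overlap (at most 8 a direction), the 6 highest means, the sleep peptides, the 4 genes at either end of the replicate difference, genes listed at 0 in some libraries, the 2 genes at either end of each related list, and known receptors. Other genes were added as examples after their values were seen. Alternatives were pseudocounts of 0.1 and 1, no filter, a minimum mean of 2 FPKM, quantile normalization, scaling to a common median, no trend, a replicate block, failed estimates kept at 0 and leaving out each library.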

Additional observations from a re-analysis of the deposited data

How the results depend on the processing

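With 2 libraries a group, 168 of 244 peptide gene values on fewer than 100 implied fragments or a bound at 0, and a clear difference between the replicate numbers, small differences were not detectable. No peptide gene passed an adjusted p of 0.05 in limma under any alternative run. Fitting the replicate number as a block moved the count of all genes past the adjusted threshold to 231 higher and 138 lower and past the unadjusted one to 1043 higher and 441 lower, and that of peptide genes at the latter to 1 lower (*nlp-17*). The labels do not say that the numbers pair the samples, and the deviations of same-numbered libraries had a correlation of 0.594 over 15065 genes. With a pseudocount of 1 FPKM 1 gene of all was higher after adjustment. Quantile normalization gave 276 and scaling to a common median 169 genes lower at the unadjusted threshold. The median of all genes was -0.060 after that scaling, and the median of the peptide genes -0.24, or -0.19 with quantile normalization.

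With 1 library left out the counts of all genes ranged from 0 to 18 higher and 0 to 7 lower with adjustment and from 112 to 750 higher and 52 to 110 lower without, and those of peptide genes from 0 to 1 higher and 0 to 1 lower without. The median ranged from -0.15 to 0.42 for all genes and from -0.23 to 0.17 for the peptide genes. Among single peptide genes the range of log2 fold changes was -0.20 to 0.16 for *flp-6*, -0.55 to 0.18 for *flp-11*, -0.73 to 0.67 for *flp-13*, -0.086 to 0.23 for *flp-24*, -0.13 to 0.32 for *flp-28*, -0.032 to 0.52 for *nlp-8*, -0.65 to 0.44 for *nlp-12*, -0.50 to 0.032 for *nlp-14*, -0.63 to 1.20 for *nlp-16*, -1.04 to 0.44 for *nlp-18*, -0.22 to 0.19 for *nlp-20*, -0.068 to 0.52 for *nlp-24*, -0.055 to 0.44 for *nlp-36* and -0.69 to 0.52 for *nlp-39*. A fit without 1 library assumes that the lone library of its group varies like the others. Scaling to a common median turned the sign of *flp-24* (-0.14), *flp-28* (-0.12), *nlp-15* (-0.078), *nlp-36* (-0.019) and *nlp-40* (-0.067), and quantile normalization that of *flp-24* (-0.023). The cause was not tested. Leaving out the 11 genes with overlapping exons or the 2 listed at 0, both chosen after seeing the data, left the median at -0.03 and -0.04.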
